A study of Mus musculus with 4 samples.

Results

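RNA polymerase I and its dependent machinery for making ribosomes were examined in mouse embryonic stem cells as a set of 40 genes. The set was chosen by symbol and held the polymerase subunits, the factors that start transcription of ribosomal DNA and the nucleolar proteins that process ribosomal RNA. All 40 were found among the 24116 genes of the count table, on 19 chromosomes, and all 40 passed the filter on low counts with 14194 genes. The study compared cells labelled as a Kdm2a knockout with wild-type cells of the same strain (12910la in the labels), with 2 RNA-seq libraries in each group. Both groups were cultured in serum medium with LIF on gelatin, without feeder cells named in the labels. The cells labelled knockout were transfected with a Kdm2a guide RNA, sorted for GFP and grown from a single clone, so a property of that clone and an effect of genotype cannot be told apart. Their titles say knockout while their genotype label says that Kdm2a was knocked down.

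RNA polymerase I transcribes only the ribosomal DNA repeats, in the nucleolus, into a long precursor that is cut and modified into the 18S, 28S and a smaller rRNA of the ribosome. UBTF and the TAF1 subunits of the selectivity factor SL1 hold the promoter, and RRN3 brings the polymerase to it. Small nucleolar RNPs of the box C/D and box H/ACA classes then guide methylation and pseudouridylation, while the small subunit processome and the large subunit assembly factors fold and trim the precursor. Fast-dividing cells such as embryonic stem cells make ribosomes at a high rate, and MYC proteins are known activators of many of these genes. KDM2A is a demethylase of histone H3 lysine 36 whose zinc finger binds unmethylated CpG, and it has been linked to the ribosomal DNA promoter in human cells.

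The libraries labelled knockout did not hold less Kdm2a RNA. They had 3710 and 4753 Kdm2a counts, against 2899 and 3554 counts in wild type, with a log2 fold change of 0.44 (SE 0.24) and an adjusted p of 1.00 by edgeR. Directions below therefore rest on the labels alone. Total counts were 19056529 and 18872382 in the libraries labelled knockout and 19005131 and 18844246 in wild type. The 10 markers of embryonic stem cells summed to 5969 to 7439 CPM (counts scaled to library size by TMM) over the 4 libraries, with Pou5f1 at 1073 and 921 CPM in the libraries labelled knockout and 1065 and 811 CPM in wild type. Other single markers differed more between wild type 1 and wild type 2. Nanog had 383 and 761 CPM there and Zfp42 260 and 565 CPM, while Tdgf1 had 1386 and 939 CPM and Dppa5a 512 and 303 CPM. Klf4 had 532 and 251 CPM in labelled knockout 1 and 2. The part of these differences in the results was not tested. Summed markers of other cells reached 30.4 to 89.7 CPM for fibroblasts (Lum at 0 counts in every library and Col3a1 at 0 or 1, but Pdgfrb at 180 to 841 and Thy1 at 316 to 699 counts), 4.92 to 16.4 for endoderm (Afp at 0), 15.7 to 31.9 for mesoderm, 119 to 162 for neural cells (Neurog2 at 0, but Tubb3 at 1043 to 1622 and Neurod1 at 58 to 972 counts) and 24.9 to 77.0 for trophoblast (Cdx2 at 0 to 2, but Tfap2c at 446 to 1365 counts). The fibroblast sum was 63.1 and 30.4 CPM in the libraries labelled knockout, against 89.7 and 37.7 CPM in wild type, and its part in the results was not tested.

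Levels spanned a wide range when set per length. Expressed as CPM per kb of coding sequence, the mean over the 4 libraries ran from 2342 for Npm1, which encodes the nucleolar chaperone nucleophosmin, to 8.32 for Taf1a, a subunit of SL1. Ncl, which encodes nucleolin, followed Npm1 at 963 CPM per kb, then Nop10 at 748 and Nhp2 at 309, both small proteins of the H/ACA particle. The initiation factors split widely on this scale, with Rrn3 at 179.8 and Ubtf at 143 but Taf1b at 11.8 and Taf1c at 13.1. Of the polymerase subunits, Polr1d (144) and Polr1c (99.1), which RNA polymerase III also contains, stood above the polymerase I subunits Polr1a (41.1), Polr1b (33.1) and Polr1e (18.9). Coding length leaves out untranslated regions, so genes with long ones are set too high on this scale. Polr1d has 399 coding bases in 3043 bases of merged exons, and Polr1a 5151 in 11871. The place of Polr1d above Polr1a and Polr1b therefore depends on the length used. Together the 40 genes took 1.10% and 1.02% of all counts in the libraries labelled knockout, against 0.928% and 1.11% in wild type, so wild type 1 was low and the groups overlapped.

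**Figure D1:**
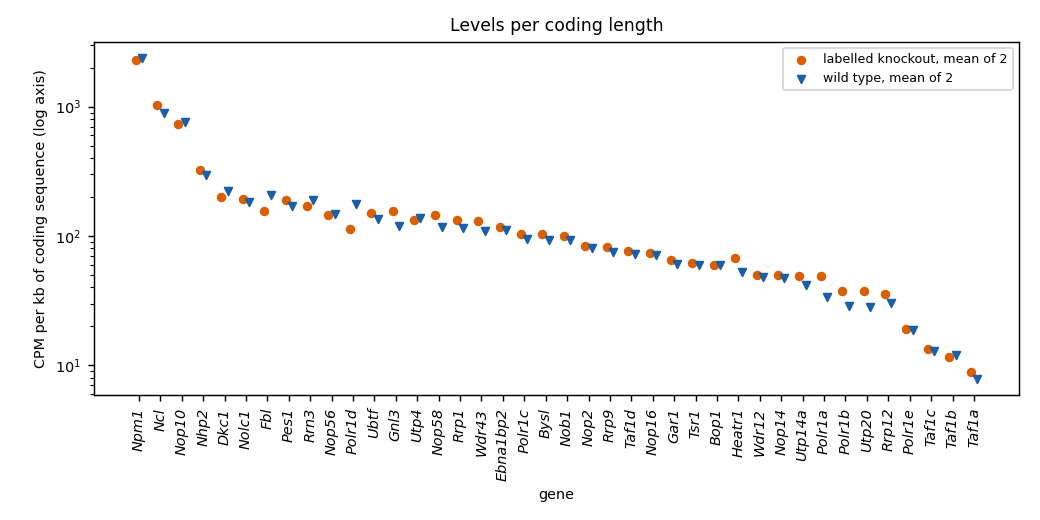
Mean level of each of the 40 genes in CPM per kb of coding sequence (log axis), in order of the mean over all 4 libraries, with the libraries labelled knockout as circles and wild type as triangles (mean of 2 libraries each). Npm1 and Ncl lie highest and the TAF1 subunits Taf1a, Taf1b and Taf1c lowest, and the group means of each gene lie close together relative to the range between genes.

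None of the 40 genes differed by the test between the libraries labelled knockout and wild type. The edgeR quasi-likelihood test called 0 of them at an adjusted p under 0.05, where it called 0 of all 14194 genes tested (0%). At an unadjusted p under 0.05 it found 0 of the 40, against 242 genes or 1.7% overall (0.888% higher and 0.817% lower in the libraries labelled knockout). DESeq2, limma-voom and the edgeR likelihood ratio test also called 0 of the 40. The lowest unadjusted p among them was 0.0869, for Utp20, and its adjusted p was 1.00, as it was for every one of the 40 when rounded. Fold changes were small: 32 of the 40 (80%) had an absolute log2 fold change under 0.26, against 57.3% of all genes tested. They ranged from -0.64 for Polr1d to 0.54 for Polr1a. The shares under 0.26 were not matched for count level, and the part of count level in them was not tested. In these bulk libraries, fewer cells of a type and less RNA per cell cannot be told apart.

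The fold changes leaned to the positive side. Of the 40 genes, 30 were above 0 and 10 below, with a median log2 fold change of 0.10, while 50.5% of all genes tested were above 0 with a median of 0.0029. Both libraries labelled knockout lay above both wild-type libraries for 10 of the 40 (25%), against 11.7% of all genes tested. These were Polr1a, Polr1b, Polr1c, Gnl3, Nhp2, Utp20, Heatr1, Rrp12, Pes1 and Rrp1. They lay below both wild-type libraries for 0 of the 40, against 12.7% of all genes tested. Members were chosen with earlier results of these data known, so these shares are a description of the set. With scaling by library totals only, 27 genes were above 0 and 8 were higher in both libraries labelled knockout.

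**Figure D2:**
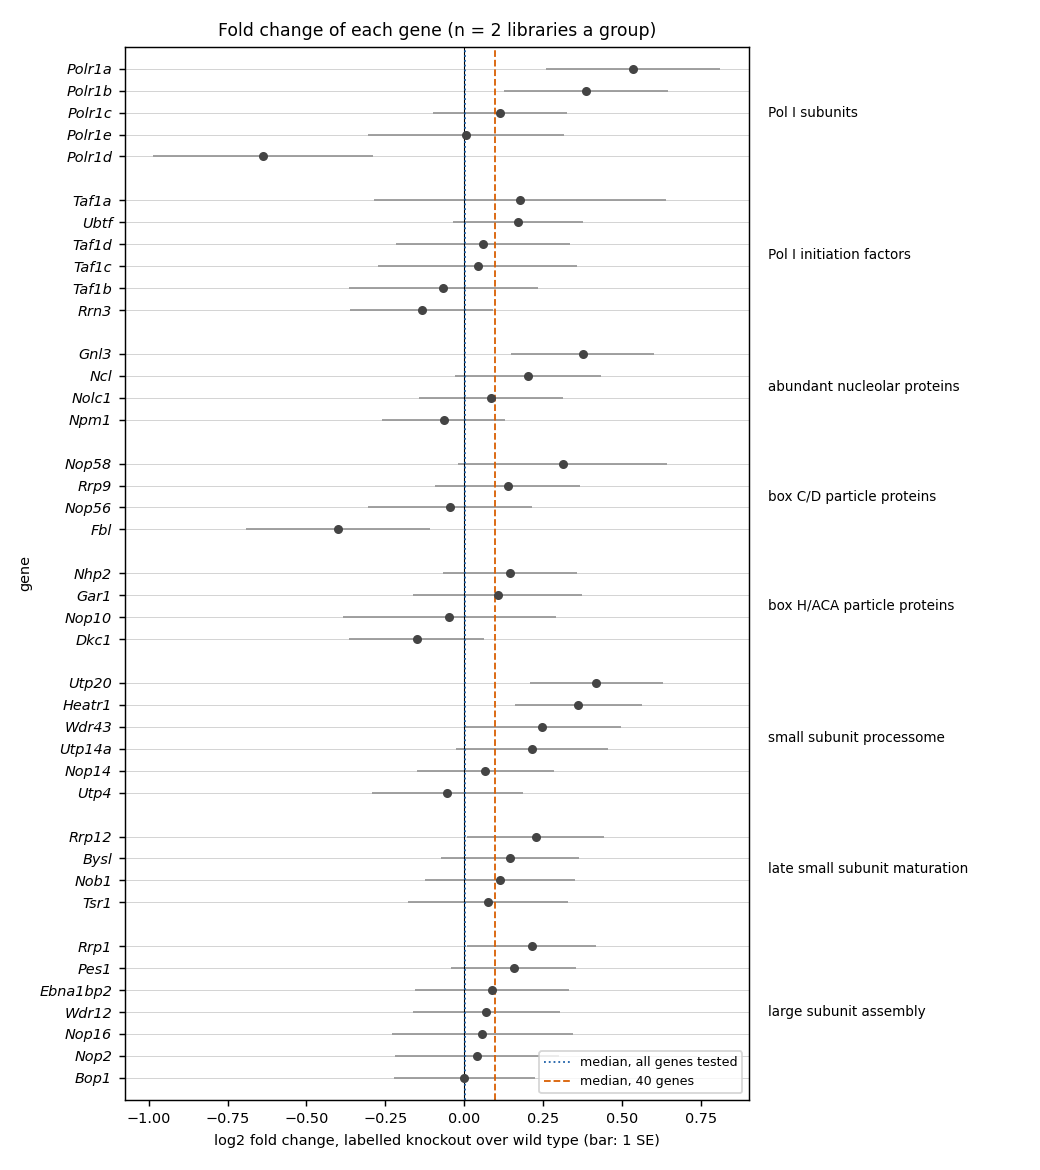
Log2 fold change (labelled knockout over wild type) of each of the 40 genes by role, with 1 SE, from 2 libraries a group. Polr1a (0.54), Utp20 (0.42) and Polr1b (0.39) lie farthest to the right and Polr1d (-0.64) and Fbl (-0.40) farthest to the left, and the dashed line marks the median of 0.10 beside 0.0029 for all genes tested (dotted).

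That lean came with 1 library, wild type 1. It was the lowest of the 4 libraries for 28 of the 40 genes (70%), against 27.3% of all genes tested. Labelled knockout 1 was lowest for 0 of the 40 (16.9% of all genes tested), labelled knockout 2 for 7 (33.4%) and wild type 2 for 5 (22.5%). Either wild-type library was lowest for 33 of the 40, against 49.7% of all genes tested. Wild type 2 was highest for 13 of the 40 (19.8% of all genes tested), each library labelled knockout for 12 (16.9% for the first and 33.6% for the second) and wild type 1 for 3 (29.6%). Wild type 1 also lay farthest from the mean of the other libraries for 22 of the 40, against 25.5% of all genes tested. Relative to the mean log2 CPM of the 4 libraries, the median over the 40 genes was 0.05 in labelled knockout 1 and 0.04 in labelled knockout 2, against -0.20 in wild type 1 and 0.08 in wild type 2. Over all genes tested these medians lay between -4e-04 and 0.02. Under other scalings the wild type 1 median was -0.18 to -0.21, and that of labelled knockout 2 turned to -0.02 with upper quartile scaling and with library totals only.

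The libraries labelled knockout differed from wild type 2 by less in this set than from wild type 1. The median log2 difference over the 40 genes was 0.03 for labelled knockout 1 minus wild type 2 and -0.04 for labelled knockout 2 minus wild type 2. It was 0.26 for labelled knockout 1 minus wild type 1 and 0.19 for labelled knockout 2 minus wild type 1. Ups and downs cancel in these medians. Median absolute differences of labelled knockout 1 and 2 were 0.16 and 0.21 from wild type 2, and 0.29 and 0.33 from wild type 1. Over all genes tested they were 0.25 and 0.33 from wild type 2, and 0.23 and 0.46 from wild type 1. Wild type 2 minus wild type 1 had a median of 0.24, with 31 of the 40 higher in wild type 2, where 47.5% of all genes tested were. Labelled knockout 2 minus labelled knockout 1 had a median of -0.03. The median of 0.24 between the wild-type libraries was larger than the median of 0.10 between the groups. These are unlike measures, since the first sets single libraries against each other and the second groups of 2. The median absolute difference between the wild-type libraries was 0.34 for the 40 genes and 0.34 over all genes tested. Between the libraries labelled knockout it was 0.17 and 0.39.

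Without wild type 1 the median over the 40 genes turned to -0.03 and 17 were above 0. Without wild type 2 it was 0.27, with 34 above 0. Leaving out labelled knockout 1 or labelled knockout 2 gave medians of 0.10 and 0.11, with 24 and 27 above 0. In these fits the median over all genes tested lay between -0.02 and 0.03, and 0 of the 40 were called in each of them. Calls over all genes were also few, with 91 of 14714 without labelled knockout 1, 8 of 14570 without labelled knockout 2 and 0 without either wild-type library.

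**Figure D3:**
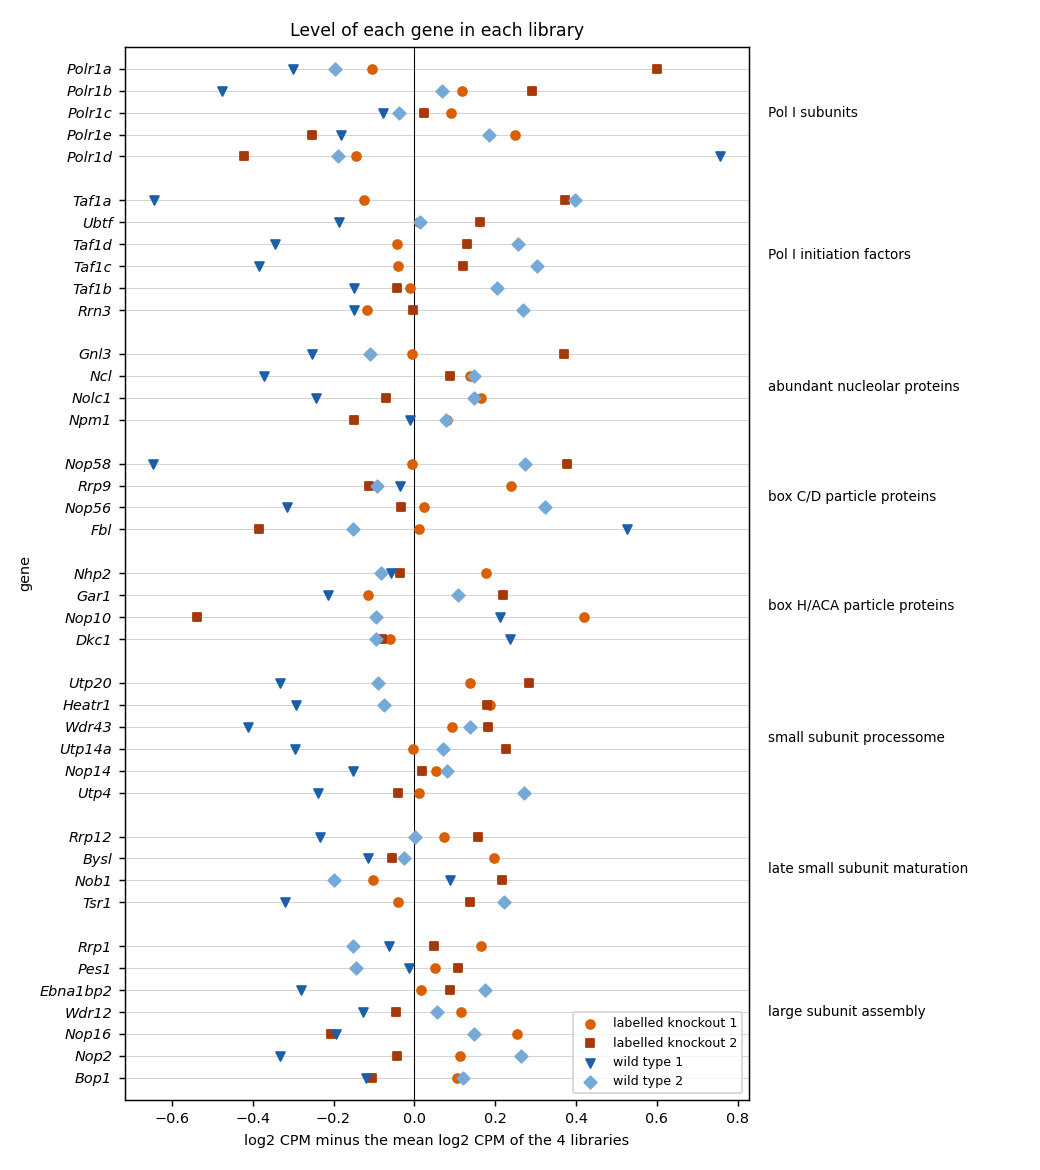
Level of each of the 40 genes in each library, as log2 CPM minus the mean log2 CPM of the 4 libraries, grouped by role (circles and squares, labelled knockout 1 and 2; triangles and diamonds, wild type 1 and 2). The triangles of wild type 1 lie farthest left for 28 of the 40 genes, and far to the right for Polr1d and Fbl.

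**Figure D4:**
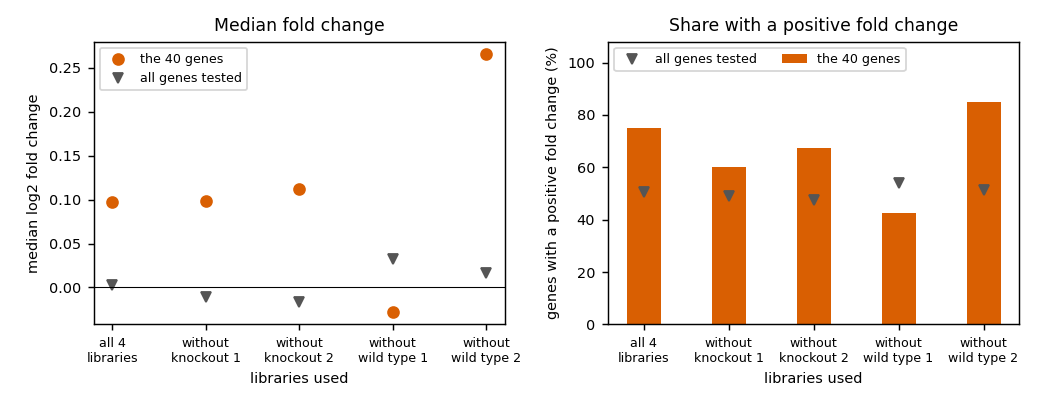
Median log2 fold change (left) and percentage of genes with a positive log2 fold change (right) for the 40 genes and for all genes tested, with all 4 libraries and with each library left out in turn. The median of the 40 genes is -0.03 without wild type 1 and 0.27 without wild type 2, and 0.10 to 0.11 in the other settings.

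The subunits of RNA polymerase I went in both directions. Polr1a (Entrez gene 20019, GRCm38.p6 chromosome 6, 71909053 to 71979435) encodes the largest, catalytic subunit and had 3642 and 5646 counts in the libraries labelled knockout, against 3184 and 3449 counts in wild type. Its mean was 250.4 ± 84.9 CPM there and 173 ± 8.81 CPM in wild type (SD, n = 2 each), a log2 fold change of 0.54 (SE 0.28). Labelled knockout 2 stood alone at 310.4 CPM while the other 3 libraries lay between 166 and 190.3 CPM. Its log2 fold change was 0.14 without labelled knockout 2 and 0.84 without labelled knockout 1. Polr1b, the second-largest subunit, had 2297 and 2461 counts against 1520 and 2235 counts in wild type, or 128 ± 10.8 CPM and 97.7 ± 25.8 CPM in wild type (SD, n = 2 each), with a log2 fold change of 0.39 (SE 0.26). Wild type 2 had 116 CPM, and wild type 1 was the low library at 79.4 CPM. The log2 fold change of Polr1b was 0.14 without wild type 1 and 0.69 without wild type 2.

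Polr1d had the most negative fold change of the set. It is a small subunit shared with RNA polymerase III (Entrez gene 20018, chromosome 5, 147076715 to 147111361), and it had 944 and 740 counts in the libraries labelled knockout, against 1766 and 922 counts in wild type. The means were 45.0 ± 6.11 CPM and 70.0 ± 31.5 CPM in wild type (SD, n = 2 each), a log2 fold change of -0.64 (SE 0.35). Wild type 1 stood apart at 92.3 CPM, and without it the log2 fold change was -0.09, while without wild type 2 it was -1.03. Its partner Polr1c, which pairs with POLR1D in the assembly platform of both polymerases, was at 0.11 (SE 0.21), with 110 and 104.5 CPM in the libraries labelled knockout and 97.4 and 100.2 CPM in wild type. Polr1e was at 0.00569 (SE 0.31).

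Wild type 1 was lowest for all 6 initiation factors, as it was for the 6 genes of the small subunit processome. The groups overlapped for each of the 6 initiation factors, where 24.4% of all genes tested had groups that did not overlap, so a count of 0 among 6 says little. Ubtf, which encodes the HMG-box protein that opens and marks active ribosomal DNA, had 6278 and 6629 counts in the libraries labelled knockout and 5472 and 6346 counts in wild type. Its means were 346 ± 25.8 CPM and 308 ± 30.5 CPM in wild type (SD, n = 2 each), with a log2 fold change of 0.17 (SE 0.21) that was 0.07 without wild type 1 and 0.28 without wild type 2. Rrn3, the growth-regulated factor that makes the polymerase competent to start, had 6202 and 6379 counts against 6068 and 8172 counts in wild type. It averaged 337 ± 18.9 CPM and 370.4 ± 75.4 CPM in wild type (SD, n = 2 each), a log2 fold change of -0.13 (SE 0.23), and wild type 2 was the high library. The 4 SL1 subunits Taf1a, Taf1b, Taf1c and Taf1d lay between -0.07 and 0.18, with SEs of 0.28 to 0.46. Taf1a was the least counted gene of the set, at 190 and 256 counts in the libraries labelled knockout and 132 and 276 counts in wild type.

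Of the abundant nucleolar proteins, Npm1 was nearly even between the groups. Npm1 (Entrez gene 18148, chromosome 11, 33152498 to 33164142) had 41441 and 33580 counts in the libraries labelled knockout and 38901 and 41685 counts in wild type, which is 2006 ± 226 CPM and 2097 ± 91.0 CPM in wild type (SD, n = 2 each). The log2 fold change was -0.06 (SE 0.19). Ncl, an RNA-binding protein of the dense nucleolus, had 2222 and 2150 CPM against 1561 and 2239 CPM in wild type, so only wild type 1 was low. Gnl3, which encodes the stem cell GTPase nucleostemin, had 4160 and 5131 counts against 3501 and 3897 counts in wild type. It averaged 249.7 ± 45.8 CPM and 192 ± 13.5 CPM in wild type (SD, n = 2 each), a log2 fold change of 0.38 (SE 0.23). Its groups did not overlap, but labelled knockout 2 was the high library and without it the log2 fold change was 0.18. Nolc1, a chaperone that carries small nucleolar RNPs, was at 0.09 (SE 0.23).

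The box C/D particle showed opposite signs among its core proteins. Fbl, the rRNA 2'-O-methyltransferase fibrillarin, had 3338 and 2409 counts in the libraries labelled knockout, against 4770 and 3004 counts in wild type, or 153 ± 29.7 CPM and 202 ± 66.1 CPM in wild type (SD, n = 2 each). Its log2 fold change of -0.40 (SE 0.29) became -0.02 without wild type 1, its high library at 249 CPM, and was -0.21 to -0.69 when each other library was left out. The scaffold proteins Nop56 and Nop58 were low in that same library. Nop56 had 256 and 246 CPM in the libraries labelled knockout and 202 and 315 CPM in wild type. Its log2 fold change was -0.04 (SE 0.26), of the same sign as that of Fbl. Nop58 had 202 and 263 CPM against 129 and 245 CPM in wild type, a log2 fold change of 0.31 (SE 0.33). Rrp9, the U3-specific protein, was at 0.14 (SE 0.23).

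The box H/ACA proteins were the one role in which the median of wild type 1 was the highest of the 4 libraries, at 0.08. This was a median over 4 genes, and that of labelled knockout 1 was close to it, at 0.06. Wild type 1 was the highest library for Dkc1 only and the lowest for Gar1. Dkc1, the pseudouridine synthase dyskerin, had 5866 and 5495 counts in the libraries labelled knockout against 7201 and 5770 counts in wild type, and averaged 304.3 ± 3.10 CPM and 338 ± 54.5 CPM in wild type (SD, n = 2 each), a log2 fold change of -0.15 (SE 0.21). Nop10 split the libraries labelled knockout, with 3570 and 1745 counts there and 3090 and 2514 counts in wild type. That was 186.5 and 95.9 CPM against 161.5 and 130.4 CPM in wild type, and its log2 fold change of -0.05 (SE 0.34) was 0.36 without labelled knockout 2. Nhp2 and Gar1, the remaining core proteins, were at 0.15 (SE 0.21) and 0.11 (SE 0.27).

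The small subunit processome had the highest role median of the log2 fold change, 0.23, with 5 of 6 genes above 0. It assembles on the nascent precursor and prepares the 18S rRNA. Wild type 1 was lowest for 6 of 6, with a median deviation of -0.29. Utp20 (Entrez gene 70683, chromosome 10, 88746607 to 88826814), a large repeat protein of the complex, had 5722 and 6013 counts in the libraries labelled knockout against 4125 and 4922 counts in wild type. The means were 315 ± 22.4 CPM and 235 ± 28.1 CPM in wild type (SD, n = 2 each), with a log2 fold change of 0.42 (SE 0.21) and groups that did not overlap. Leaving out each library in turn gave 0.30 to 0.55. Heatr1, the counterpart of yeast Utp10, was at 0.36 (SE 0.20), with 433 and 430.5 CPM against 310.5 and 361 CPM in wild type. Utp4, a WD-repeat protein known as cirhin, had 5325 and 4884 counts against 4478 and 6427 counts in wild type, or 273 ± 6.87 CPM and 284 ± 70.2 CPM in wild type (SD, n = 2 each), a log2 fold change of -0.05 (SE 0.24). Wdr43, Utp14a and Nop14 were at 0.25, 0.22 and 0.07 (SEs 0.25, 0.24 and 0.22).

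Late maturation of the small subunit involves export and final trimming of the 18S rRNA, and all 4 of its genes had a positive log2 fold change. Rrp12 had 2543 and 2563 counts in the libraries labelled knockout against 2056 and 2439 counts in wild type. It averaged 137 ± 5.69 CPM and 117 ± 13.5 CPM in wild type (SD, n = 2 each), a log2 fold change of 0.23 (SE 0.22) that was 0.11 without wild type 1 and 0.36 without wild type 2. Bysl had 2812 and 2242 counts against 2266 and 2429 counts in wild type, or 135 ± 16.7 CPM and 122 ± 5.33 CPM in wild type (SD, n = 2 each), a log2 fold change of 0.14 (SE 0.22) that was 0.0103 without labelled knockout 1. Nob1, the endonuclease that makes the mature 18S end, was at 0.11 (SE 0.24) and Tsr1 at 0.08 (SE 0.26).

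Large subunit assembly genes had a median log2 fold change of 0.07. Pes1, of the PeBoW complex that processes the 28S precursor, had 6282 and 6210 counts in the libraries labelled knockout against 6007 and 5525 counts in wild type. It averaged 335 ± 9.32 CPM and 300.2 ± 19.4 CPM in wild type (SD, n = 2 each), a log2 fold change of 0.16 (SE 0.20) that was 0.10 without wild type 2. The other PeBoW subunits Bop1 and Wdr12 were at -8.38e-05 (SE 0.22) and 0.07 (SE 0.23). Rrp1, named for a yeast assembly factor, had 3941 and 3450 counts against 3364 and 3188 counts in wild type, or 198 ± 11.5 CPM and 170.5 ± 7.41 CPM in wild type (SD, n = 2 each), a log2 fold change of 0.21 (SE 0.21). For Pes1 and Rrp1 the groups did not overlap and wild type 2, not wild type 1, was the lowest library. Nop2, an rRNA cytosine methyltransferase, Nop16 and Ebna1bp2 were at 0.04, 0.06 and 0.09.

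Other ribosome assembly genes showed the same low library. Over 93 other ribosome assembly genes in 3 lists (small subunit processome, late small subunit and large subunit assembly), 68 were above 0 and 25 below, 0 were called in either direction, and the median log2 fold change was 0.11. Wild type 1 was lowest for 62 of the 93, and its median deviation was -0.19, against 0.08 in labelled knockout 1, 0.06 in labelled knockout 2 and 0.07 in wild type 2. The lists were written with earlier results of these data known. Rrp8, a nucleolar methyltransferase of a complex that silences ribosomal DNA, was the only gene of all the pathway lists at an unadjusted p under 0.05, a smaller share than the 1.7% of all genes tested, and its adjusted p was 1.00 by edgeR. It had 763 and 885 counts in the libraries labelled knockout against 557 and 502 counts in wild type, a log2 fold change of 0.68 (SE 0.26), and both wild-type libraries were low. In the same list Nle1, a large subunit factor, was at 0.54 (SE 0.33), with wild type 2, not wild type 1, low at 27.4 CPM. The other libraries had 47.6 to 59.4 CPM of Nle1. Of the processome genes, Utp25 was at 0.42 (SE 0.24) and Dhx37, a helicase, at 0.63 (SE 0.44), with labelled knockout 2 alone high for Dhx37 at 142 CPM. Of the late small subunit genes, the kinase Riok3 was at -0.27 (SE 0.24) and Pno1 at 0.17 (SE 0.23).

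The polymerase lists had median log2 fold changes between -0.01 and 0.08. Wild type 1 was less low in them than in the ribosome assembly lists. Its median deviation was -0.05 for the other polymerase I subunits, -0.09 for polymerase III and -0.03 for polymerase II. In the polymerase II list labelled knockout 2 was lower, at -0.08. The 8 other subunits found in RNA polymerase I had a median of 0.07, with Cd3eap, a polymerase I subunit, at 0.35 (SE 0.35) and Polr2h, a subunit of all 3 nuclear polymerases, at 0.13 (SE 0.24). RNA polymerase III subunits had a median of 0.08 over 11 genes, and both libraries labelled knockout were above both wild-type libraries for 4 of them, against 11.7% of all genes tested. These included Polr3a, the largest subunit, at 0.35 (SE 0.23) and Polr3c at 0.36 (SE 0.24). The 7 subunits particular to RNA polymerase II had a median of -0.01, with Polr2a at 0.15 (SE 0.20) and Polr2c at -0.16 (SE 0.23). None of these genes was called.

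Exosome genes, which trim the precursor, had a median of 0.03 over 16 genes, with Exosc6 at 0.42 (SE 0.26) and the helicase Mtrex at 0.23 (SE 0.23). Assembly factors of small nucleolar RNPs had a median of 0.07 over 12 genes. Snu13, a protein of box C/D and U4 particles, had 161 and 144 CPM in the libraries labelled knockout against 64.9 and 159 CPM in wild type, and Pih1d1 was at 0.39 (SE 0.36). Regulators of ribosomal DNA chromatin had a median of -0.00630 over 13 genes. The Kdm2a paralog Kdm2b had a log2 fold change of 0.54 (SE 0.28). Labelled knockout 2 was its high library, with 137 and 218 CPM in the libraries labelled knockout against 115.5 and 129.5 CPM in wild type. The remodeller Smarca5 was at -0.56 (SE 0.30), with 352 and 256 CPM in the libraries labelled knockout and 335 and 561 CPM in wild type. The MYC family and its partners had a median of 0.12 over 12 genes, and the genes of lowest unadjusted p were Mxd1, a MYC antagonist, at 0.78 (SE 0.57) and Mga at 0.41 (SE 0.33). Labelled knockout 2 alone was high for both. Mxd1 had 8.26 and 28.8 CPM in the libraries labelled knockout against 10.7 and 10.9 CPM in wild type, and Mga had 273 and 529 CPM against 269 and 332.5 CPM in wild type. The median deviation of wild type 1 was -0.04 in the MYC list and -0.08 for the assembly factors of small nucleolar RNPs. It was -0.13 for the exosome genes and -0.15 for the regulators of ribosomal DNA chromatin. In the ribosome assembly lists it was -0.16 to -0.21, and the difference between lists was not tested.

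**Figure D5:**
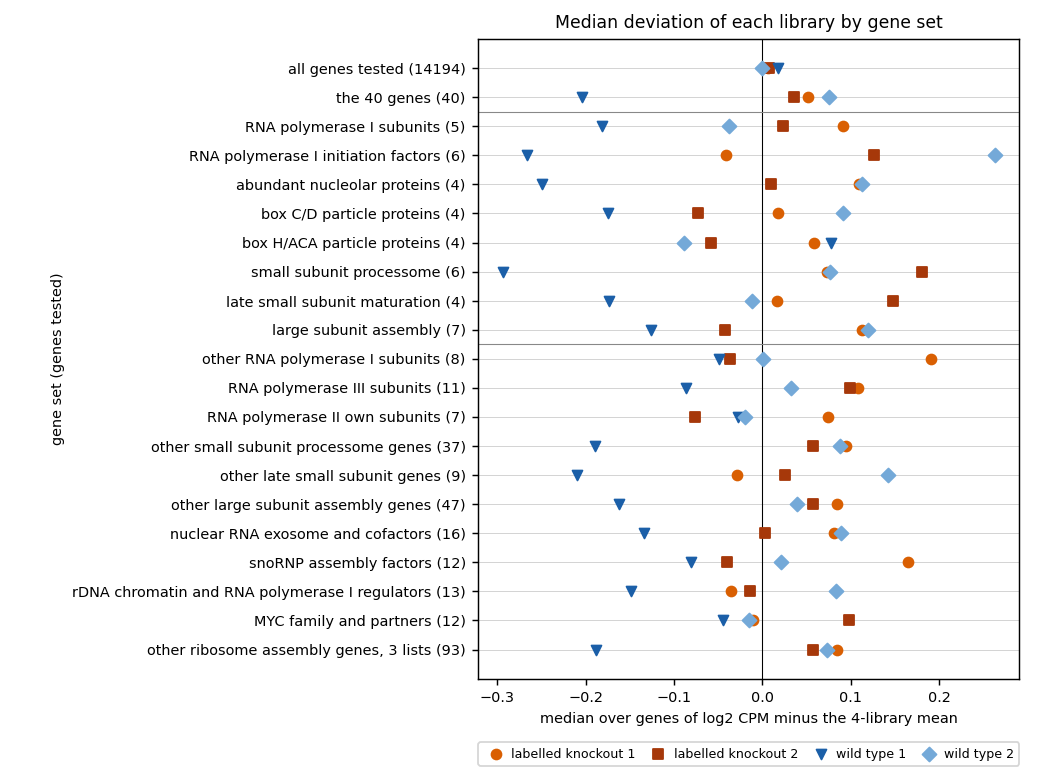
Median over genes of log2 CPM minus the 4-library mean, for each library (circles and squares, labelled knockout 1 and 2; triangles and diamonds, wild type 1 and 2), in all genes tested, the 40 genes, their 8 roles and the other pathway lists, with the number of genes tested in parentheses. Wild type 1 lies at -0.20 for the 40 genes and at -0.19 for the 93 other ribosome assembly genes, and at 0.02 for all genes tested.

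Gene length moved with the fold changes. Of the 40 genes, the 16 with over 2000 bases of coding sequence had a median log2 fold change of 0.19, the 15 with over 1000 and up to 2000 bases 0.11 and the 9 with up to 1000 bases 0.06. Over all genes tested these classes had medians of 0.03, 0.00330 and -0.02. In the longest class the median deviation of wild type 1 was -0.30 for the set and -0.03 for all genes tested. The part of length in the difference of wild type 1 was not tested.

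Some of these counts could hold reads of other genes, since the strand setting of the counting is not given in the sources used here. In the GENCODE annotation, 32.3% of the merged exons of Tsr1 overlapped Srr on the opposite strand, 16.7% of those of Taf1c overlapped Dnaaf1, 11.4% of those of Utp14a overlapped 9530027J09Rik and 9.37% of those of Bysl overlapped Ccnd3. Small nucleolar RNA genes lie inside several members, with 8 of them within Taf1d and 5 within Nop56.

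Promoters of the set were compared by their letters. The RefSeq table of GRCm38.p6 gave 45 windows (250 bases before to 50 after a start) for 36 of the 40 genes. The E-box CACGTG, bound by MYC with MAX and by USF, was in 7 of the 45 windows (15.6%), against 9.92% of the windows of genes tested and 7.15% of all windows. The ETS motif CCGGAAG was in 15 (33.3%), against 16.4% and 8.86%, the NFY motif CCAAT in 13 (28.9%), against 37.9% and 37.4%, and the YY1 motif AAGATGGC in 0, against 4.11% and 2.75%. The NRF1 motif was also in 0, against 1.92% and 0.971%. Both strands were searched, and each motif was searched on its own, so hits may overlap. Shares are per window, and genes with several starts, such as Ubtf, count more than once. By gene, the E-box was in 7, the ETS motif in 14 and the NFY motif in 11. The ratio of observed to expected CpG was above 0.6 in 35 of the 45 windows (77.8%), against 66.7% and 35.8%. The median ratio was 0.803, against 0.738 for genes tested and 0.384 for all windows. A match is a description of these letters and does not show that a factor binds.

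The 250 bases before the start are shown for 4 members in which E-box or ETS letters fall close to the start. They were chosen after their values were seen, and other members with these motifs, such as Pes1, Nhp2 and Polr1e, were not lowest in wild type 1. Nop2 lies at chr6:125131633-125131882 on the plus strand and has an E-box whose first base is 60 bases before the start and an ETS motif at 38. Rrn3 lies at chr16:13780449-13780698 on the plus strand, with E-boxes at 215 and 48. Utp4 lies at chr8:106893390-106893639 on the plus strand, with ETS motifs in reverse complement at 43 and 19. Heatr1 lies at chr13:12395125-12395374 on the plus strand, with an ETS motif at 16. The full windows, which run past the start, also hold 2 ETS motifs for Rrn3 and 1 E-box for Utp4. These do not lie wholly within the bases shown. The sequences run 5′ to 3′, and capitals mark the E-box and the ETS motif on either strand.
Nop2: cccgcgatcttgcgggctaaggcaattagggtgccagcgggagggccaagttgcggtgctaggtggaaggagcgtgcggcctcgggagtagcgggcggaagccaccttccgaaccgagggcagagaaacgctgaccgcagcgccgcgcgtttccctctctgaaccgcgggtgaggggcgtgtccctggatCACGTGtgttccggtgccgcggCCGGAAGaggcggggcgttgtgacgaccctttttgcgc
Rrn3: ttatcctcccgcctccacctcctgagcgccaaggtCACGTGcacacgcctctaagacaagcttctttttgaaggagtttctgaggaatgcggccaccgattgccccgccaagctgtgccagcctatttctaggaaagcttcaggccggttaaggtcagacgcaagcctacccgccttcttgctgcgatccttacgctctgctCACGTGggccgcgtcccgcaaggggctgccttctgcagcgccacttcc
Utp4: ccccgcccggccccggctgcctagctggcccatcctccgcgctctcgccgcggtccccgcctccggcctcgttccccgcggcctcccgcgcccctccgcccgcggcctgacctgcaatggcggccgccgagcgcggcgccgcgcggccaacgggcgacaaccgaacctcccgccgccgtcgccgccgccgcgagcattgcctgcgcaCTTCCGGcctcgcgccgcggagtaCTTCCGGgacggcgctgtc
Heatr1: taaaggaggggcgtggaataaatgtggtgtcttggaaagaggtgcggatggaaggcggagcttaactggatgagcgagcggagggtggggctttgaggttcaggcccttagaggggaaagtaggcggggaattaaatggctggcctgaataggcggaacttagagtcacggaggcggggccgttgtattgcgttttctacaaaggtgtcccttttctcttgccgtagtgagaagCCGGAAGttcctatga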

How the data were processed

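RNA was measured in 4 libraries, 2 labelled Kdm2a knockout and 2 wild type, grouped and numbered by their titles. The authors deposited whole-number read counts per Entrez gene, without normalizing them. Tools named in the submitters' processing notes were HISAT2 and featureCounts, with the build mm10. Their versions, annotation and strand setting were not given. Of 24116 genes, 24061 were matched to a symbol in RefSeq GRCm38.p6, and the unmatched ones held 0.0334% to 0.0439% of a library's counts. Libraries had 18844246 to 19056529 counts, at which 3 counts are 0.157 to 0.159 CPM, a limit that covers counting error only.

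Genes were kept by filterByExpr (minimum count 10), scaled by TMM and tested with the quasi-likelihood F test of edgeR 4.0.16 (R 4.3.3) on genotype alone, with Benjamini-Hochberg adjustment over 14194 genes and a threshold of 0.05. The SE is the absolute log2 fold change over the square root of F. Log2 CPM used a prior count of 2. Whether the libraries within a group are separate cultures is not stated, so the p-values reflect spread that may be technical. The script was tested on simulated counts. Coding lengths are the longest in the GENCODE M21 basic set. The 40 genes and the pathway lists were chosen with earlier results of these data known. Named in full are, per role, the gene with the lowest p and that with the highest level per coding kb, and the 3 highest and 3 lowest fold changes. Ncl, Nop56, Nop58, Heatr1, Polr1c, Taf1a and Snu13 were given by library after their values were seen, as were the promoters printed. Alternatives were other scalings, filters and tests (DESeq2 1.42.0, limma 3.58.1), a replicate block and each library left out. Of the pathway symbols, 6 were not matched, and some of these are newer names of genes that were.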

Additional observations from a re-analysis of the deposited data

How the results depend on the processing

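The count of 0 called among the 40 genes held in each setting tried: RLE, upper quartile and total scaling, 2 other filters, 3 other tests, a threshold of 0.01, the replicate block and each library left out. Over all genes the count of 0 became 2 with DESeq2 and 4 with the likelihood ratio test. Leaving out a library gave 0 to 91 called genes, with 91 without labelled knockout 1 and 8 without labelled knockout 2. The median of the 40 genes ranged from -0.0275 to 0.2652 when a library was left out, and their number above 0 from 17 to 34. Among the genes named in full, Dkc1 ranged from -0.30 to 0.0248, Nop10 from -0.61 to 0.36, Npm1 from -0.19 to 0.0486, Rrn3 from -0.33 to 0.10 and Utp4 from -0.29 to 0.23. Their signs turned when 1 library was left out (for Nop10 either wild type 1 or labelled knockout 2), and the cause was not tested. Signs of other members turned too, since the number above 0 fell from 30 to 17 without wild type 1. Fits without a library assume that a lone library varies like the other group. With the replicate number as a block, 0 genes were called, the median was 0.11 and 30 were above 0. Deviations of same-numbered libraries correlated at 0.347 across genes, and no label says that the numbers pair them. Leaving out the ribosomal RNA genes changed neither the number of genes tested nor the median and the number above 0 of the 40 genes. It removed no tested gene, so it could not show whether reads of ribosomal RNA matter. The counts above 0 and the library medians were added after the data were seen. With 2 libraries a group, small differences could not be detected.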
